A study of Homo sapiens with 2 samples.

Results

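SETMAR-HA binding was examined in 5 genes of growth factor signalling, NTRK2, FGF1, ANGPT1, EFNA5 and SOS1. Each gene body was searched for peaks of the deposited ChIP-seq list, and each held exactly 1 peak, which gave 5 peaks of the 764 in the list. The genes were chosen because they held a peak, so the presence of a peak in them is a description and not a finding. The deposited list annotated all 5 peaks as intron, and they are set here against all 330 peaks with that annotation. Over the whole annotation, a peak overlapped the body of 340 among 19970 protein-coding genes (1.70%).

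The chromatin came from HAP1, a nearly haploid human cell line derived from a leukaemia. The endogenous SETMAR gene of these cells had been disrupted by CRISPR/Cas9, and SETMAR with an N-terminal HA tag came from a Sleeping Beauty transgene switched on by doxycycline. The transgenic line is polyclonal, and the ChIP and the input sample share the knockout and the transgene. Induction lasted 24 h, and the labels name doses of 0.2, 0.5, 1 and 2 μg/ml without saying which of them was sequenced, while the study names 0.5 as the concentration chosen for ChIP-seq, in μM in its methods and in μg/ml in its results. There was 1 sample precipitated with an anti-HA antibody and 1 input sample, so no value below has a spread between replicates, and the peaks of 1 list do not stand in for replicates. The lists give positions only, without height, score or the reads behind a peak. The input list held 81 peaks, and 0 of them lay in any of the 5 genes. The authors took input peaks out of the ChIP list, so none could overlap the 5 peaks. The share of all genes with an input peak was not computed, so this 0 does not set the 5 genes apart. Expression was not part of these files, so the labelled cell type could not be checked against marker genes.

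SETMAR joins a histone methyltransferase domain to the transposase of an Hsmar1 mariner element. The transposase part recognises the inverted terminal repeat (ITR), the short sequence at each end of such an element, of which many remnants are scattered over human chromosomes. Some remnants keep a pair of ITRs that face each other over a short spacer, while others keep a solo ITR. The genes described here act along the route from an extracellular ligand to RAS. FGF1 is a fibroblast growth factor, ANGPT1 is the ligand of the endothelial receptor TIE2, and EFNA5 is a membrane-anchored ligand of Eph receptors. NTRK2 encodes TrkB, the receptor tyrosine kinase for brain-derived neurotrophic factor. SOS1 is the exchange factor that loads RAS with GTP once receptor tyrosine kinases are active.

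The 19-nt consensus ITR and ITRs of 3 of the genes are shown to compare copies in and outside a peak. They were read from hg38 on the motif strand. Capitals mark bases that differ from the consensus.
Consensus: ggtgcaaaagtaattgcgg
SOS1, in the peak, chr2:39007701-39007719, minus strand: ggtgcaaaagtaattgcAg
SOS1, intron 1, not in a peak, chr2:39073322-39073340, minus strand: ggtgcaaaagtaattgATg
EFNA5, in the peak, chr5:107431320-107431338, plus strand: ggtgcaaaagtaattgcgg
EFNA5, intron 2, not in a peak, chr5:107406291-107406309, minus strand: ggtgcaaaTgtaattgcAg
FGF1, in the peak, chr5:142626404-142626422, minus strand: ggtgcaaaagtaattgcgC
In SOS1 and EFNA5 the copy in the peak had fewer mismatches, and the copies in the peaks of SOS1 and FGF1 differ from the consensus only in its last bases. ANGPT1, not shown, did not have this order, as a pair outside its peak had fewer mismatches than the pair inside.

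**Figure D1:**
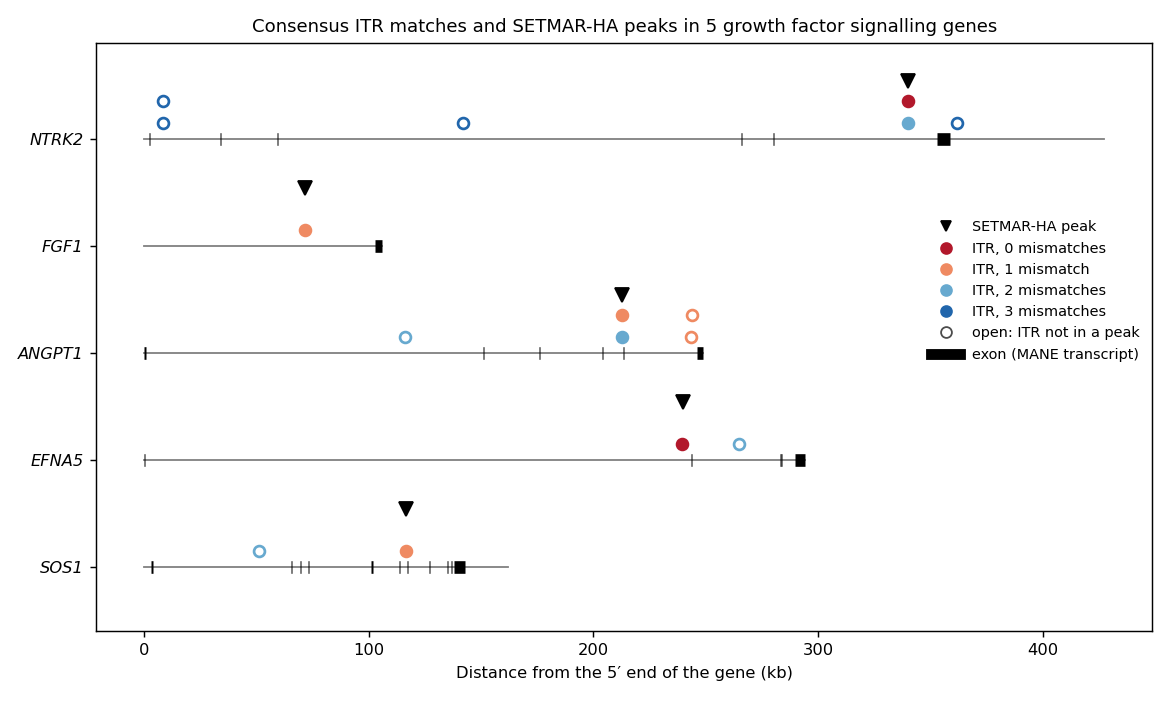
Each line is a gene body drawn to scale from its 5′ end (kb), with exons of the MANE transcript as black blocks, the SETMAR-HA peak as a triangle and each ITR as a circle coloured by its mismatches (filled when it lies in the peak extended by 500 bp, open when not). The circles of a pair are stacked. The 5 genes hold 16 ITRs, of which 7 lie in the peaks, and the remaining 9 do not.

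Among the ligands, FGF1 (ENSG00000113578.18, chr5:142592178-142698070, minus strand) had a peak of 600 bp at chr5:142626101-142626700. The list assigned it to intron 1 of 3 of NM_001144935, an element of 21778 bp from 142622335 to 142644112. The peak centre lay 17711 bp from the 5′ end of this intron, at 81.3% of its length. FGF1 is read from several alternative first exons, and the peak lay among them. In the MANE transcript, the reference isoform of the gene, it was upstream of the start codon, with 0 of 155 codons before the intron. Of 13 coding transcripts in GENCODE release 44, the peak fell in an intron of 12, and 1 began downstream of it. That transcript, ENST00000359370.10, started at 142621342, which was 5058 bp from the peak centre and was the nearest transcription start site. Intron 1 of the MANE transcript was longer than the assigned one (142614162 to 142685956, 71795 bp) with the peak centre at 83.0% of it. The peak also lay in the body of SPRY4-AS1, a non-coding gene, so position alone does not tie it to FGF1 only.

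The FGF1 peak held 1 ITR, at chr5:142626404-142626422 on the minus strand, with its middle 12.5 bp from the peak centre. It carried the substitution G19C, where the consensus base comes first and position 1 is its 5′ base. This was the only ITR within the FGF1 gene body. An ITR with G19C and no other change was rare, with 9 copies on chromosomes 1 to 22 and X. The FGF1 copy was the only 1 of the 9 in a peak. The gene was chosen because it held a peak, so 1 of 9 does not estimate how often this form lies in a peak. Among the other 329 intron peaks 0 had it as their closest ITR. Intervals given below cover counting error only.

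ANGPT1 (ENSG00000154188.10, chr8:107249482-107498055, minus strand) had a peak of 500 bp at chr8:107285101-107285600. It was assigned to intron 6 of 8 of NM_001199859, which runs from 107284849 to 107293935 over 9087 bp. The centre lay at 94.5% of the intron, 501 bp from the next exon. In the MANE transcript 346 of 498 codons precede this intron, which places it within the part that encodes the fibrinogen-like domain, the receptor-binding end of the protein. The intron was the same in the MANE transcript, and 4 of 5 coding transcripts had the peak in an intron, while 1 ended before it.

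The ANGPT1 peak covered a pair of ITRs facing each other, with 1 mismatch (G18A) in the copy on the plus strand and 2 mismatches (G16A and C17T) in that on the minus strand. Their outer ends were 66 bp apart, the median span of all paired elements found in the genome. A second pair lay in intron 8 of the same gene, 30.9 kb from the peak centre, with 1 mismatch in each ITR (T14C and G19T). The deposited list had no peak there, although this pair had fewer mismatches in all than the pair in the peak. Over the genome, pairs with 1 mismatch in each ITR lay in a peak in 63 of 251 cases (25.1%, 95% Clopper-Pearson interval 19.9 to 30.9%). Pairs with 1 and 2 mismatches did so in 86 of 517 cases (16.6%, 13.5 to 20.1%). In both kinds most pairs had no peak, and the difference between the kinds was not tested. The remaining ITR of the gene, in intron 1 with 2 mismatches (A7G and C17T), was also outside the peak.

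EFNA5 (ENSG00000184349.14, chr5:107376894-107670937, minus strand) had a peak of 400 bp at chr5:107431101-107431500. The list placed it in intron 1 of 4 of NM_001962, from 107427510 to 107670488, an intron of 242979 bp that makes up 82.6% of the gene. Only 10 of the 330 intron peaks lay in a longer intron. The centre was 239187 bp from the 5′ end of the intron, at 98.4% of its length, and 3790 bp from its other end. Just 41 whole codons of 228 precede this intron, so most of the ephrin domain is encoded after it. Both coding transcripts had the peak in an intron.

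The EFNA5 peak held 1 ITR with 0 mismatches, at chr5:107431320-107431338 on the plus strand, 28.5 bp from the peak centre. It pointed against the direction of transcription. The gene had 1 further ITR in intron 2, at chr5:107406291-107406309 and 25.0 kb from the peak centre, which differed by A9T and G18A and was not in a peak. ITRs with exactly these changes numbered 42 in the genome, with 1 in a peak (2.38%, 95% Clopper-Pearson interval 0.0603 to 12.6%). The EFNA5 copy is not paired, and among the unpaired copies 0 of 31 were in a peak (up to 11.2% by the same interval). That copy is itself counted in the 42 and the 31, so these shares are not independent of it.

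The receptor gene NTRK2 (ENSG00000148053.18, chr9:84668375-85095751, plus strand) was the longest of the 5 with 427377 bp. Its peak was 600 bp wide, at chr9:85008101-85008700, and was assigned to intron 16 of 17 of NM_001018064, from 84955518 to 85020205 (64688 bp). The centre lay 52882 bp into this intron, at 81.8% of its length. In the MANE transcript the same intron is number 17 of 18, and 724 of 838 codons precede it, which places it between exons that encode the tyrosine kinase domain. Truncated TrkB receptors without the kinase domain are known products of this gene. Of 36 coding transcripts, 25 ended before the peak and 11 spanned it, all 11 with the peak in an intron. The peak therefore lay outside the transcribed region of the shorter forms.

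The NTRK2 pair consisted of an ITR with 0 mismatches on the minus strand (chr9:85008396-85008414), whose middle was 4.5 bp from the peak centre, and an ITR with A13G and G18A on the plus strand (chr9:85008350-85008368), 41.5 bp from the centre. The pair spanned 65 bp with 27 bp between the ITRs. Across the genome, pairs with 0 and 2 mismatches lay in a peak in 66 of 128 cases (51.6%, 95% Clopper-Pearson interval 42.6 to 60.5%). NTRK2 held 4 other ITRs, each with 3 mismatches, at 21.7 to 332 kb from the peak centre, and 0 of them were in a peak. An inverted pair in intron 2 was among these 4.

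SOS1 (ENSG00000115904.15, chr2:38962206-39124345, minus strand), the cytoplasmic link from receptors to RAS, had a peak of 400 bp at chr2:39007501-39007900. It lay in intron 15 of 22 of NM_005633, from 39007194 to 39010583, which at 3390 bp was the shortest intron among the 5. The centre was at 85.0% of the intron and 506 bp from its edge. In the MANE transcript 836 of 1333 codons lie before this intron, within the part that encodes the catalytic Cdc25-homology region. A transcript model with a retained intron, ENST00000474390.1, starts at 39007499, which is 2 bp outside the edge of the peak. Peak edges follow coverage bins of 100 bp, so this distance is not exact. Of 7 coding transcripts, 6 had the peak in an intron and 1 ended before it, and 0 annotated exons of SOS1 overlapped the peak.

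The ITR under the SOS1 peak, at chr2:39007701-39007719 on the minus strand, carried G18A and had its middle 9.5 bp from the peak centre. G18A is a common form, the closest ITR in 79 of the other 329 intron peaks (24.0%). The median width of those 79 peaks was 300 bp, against 400 bp for the SOS1 peak and 500 bp for the ANGPT1 peak, which had the same closest form. Among unpaired ITRs of the genome with G18A alone, 68 of 494 were in a peak (13.8%, 95% Clopper-Pearson interval 10.9 to 17.1%). The other ITR of SOS1, at chr2:39073322-39073340 in intron 1, carried C17A and G18T and was outside the peak. This form has 5 copies in the genome, paired or not, and 0 of them were in a peak (up to 52.2% by the same interval). The SOS1 copy is itself among these 5, so this count is not independent of it.

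**Figure D2:**
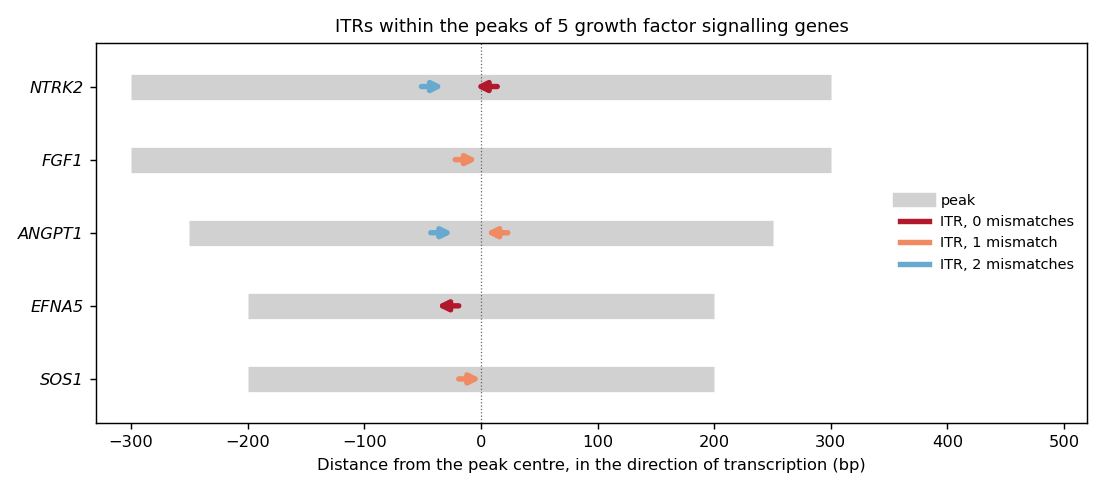
Grey bars are the 5 peaks, aligned at their centres and turned to the direction of transcription of each gene (bp), and arrows are ITRs in the direction of the consensus, coloured by mismatches. In each peak the closest-matching ITR lies within 28.5 bp of the centre, and NTRK2 and ANGPT1 hold facing pairs.

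The closest-matching ITR lay 4.5 to 28.5 bp from the peak centre in the 5 genes, with a median of 12.5 bp. Over the 329 intron peaks with an ITR the median was 28.5 bp (interquartile range 12.5 to 47.5 bp). Thus none of the 5 lay farther out than the median intron peak. Peak widths come in steps of 100 bp, so these distances are finer than the resolution of the peak edges. The best ITR had 0 mismatches in 2 of the 5 peaks and 1 mismatch in 3, against 139 (42.1%) and 160 (48.5%) of the 330 intron peaks. Paired ITRs were found in 2 of 5, against 189 of 330 (57.3%, 95% Clopper-Pearson interval 51.7 to 62.7%). The best ITR ran in the direction of transcription in FGF1 and SOS1 and against it in NTRK2, ANGPT1 and EFNA5, while 188 of the 330 intron peaks (57.0%) had it on the strand of the gene.

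The 3 peaks with a solo ITR had no close partner at the usual spacing of a pair. When the opposite strand was compared with the consensus at 40 to 60 bp from the ITR, the closest match had 11 mismatches in FGF1, 10 in EFNA5 and 11 in SOS1. In the 139 intron peaks with 1 ITR the median was 10 mismatches and the range 4 to 12. The 7 bases ahead of the best ITR, which belong to the outer end of the transposon, were the same in FGF1, ANGPT1, EFNA5 and SOS1. This run was the most common one in intron peaks, where it preceded 167 of 329 best ITRs (50.8%), and it also preceded 4822 of the 10854 ITRs of the genome (44.4%). In NTRK2 it matched at 5 of the 7 bases.

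Taking the gene bodies whole, 16 ITRs with at most 3 mismatches were found, 1 in FGF1, 2 each in EFNA5 and SOS1, 5 in ANGPT1 and 6 in NTRK2. Of these, 7 lay in a peak (43.8%). This share and the counts by mismatches below were raised by the choice of genes with a peak. The ITRs of a pair are also not independent, so no interval is given. In the bodies of all protein-coding genes 540 of 4318 ITRs lay in a peak (12.5%). The 2 ITRs with 0 mismatches were both in a peak, as were 3 of 5 with 1 mismatch, 2 of 5 with 2 mismatches and 0 of 4 with 3 mismatches. The corresponding shares over all protein-coding genes were 49.1%, 16.8%, 6.81% and 5.25%. The 2 ITRs with 2 mismatches in a peak were the partners of a closer match, in NTRK2 and ANGPT1. In NTRK2, EFNA5 and SOS1 the peak held the ITR with the fewest mismatches of the gene, in FGF1 it held the only ITR, and in ANGPT1 the ITR with the fewest mismatches in the peak tied with those of the pair outside it. For comparison, 135 of the 340 genes with a peak had ITRs both inside and outside it. The lowest number of mismatches was inside in 79 of them (58.5%), equal in 37 (27.4%) and outside in 19 (14.1%).

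The 5 peaks lay late in their assigned introns. Their centres were at 81.3% (FGF1), 81.8% (NTRK2), 85.0% (SOS1), 94.5% (ANGPT1) and 98.4% (EFNA5) of the intron length from the 5′ end, with a median of 85.0%. The 330 intron peaks were spread over the whole length, with a median of 50.5% and an interquartile range of 27.7 to 75.4%, and 66 of them (20.0%) lay past 80%, a limit set after the values were seen. With 5 peaks of genes picked from 1 list, this is a description and was not tested. It also depended on the annotation. When the innermost intron of any GENCODE transcript was used, the centre was at 49.9% in NTRK2 and at 59.1% in FGF1. It was at 95.2% in EFNA5 and stayed at 85.0% in SOS1 and 94.5% in ANGPT1. The intron used for NTRK2 was shorter than the assigned one (23553 bp against 64688 bp). That for FGF1 was longer (29951 bp against 21778 bp).

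**Figure D3:**
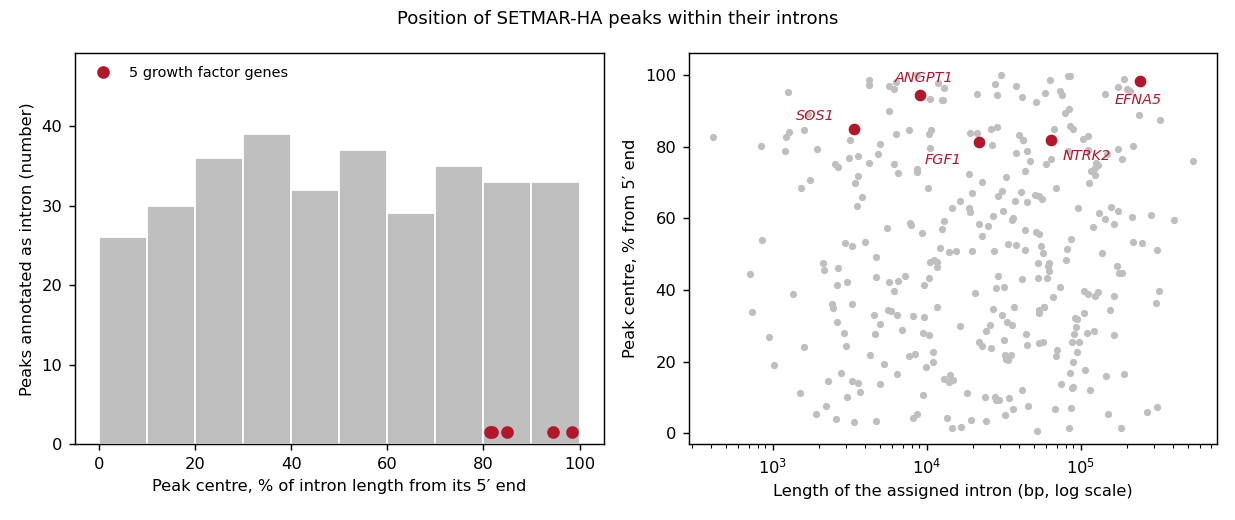
The left panel counts the 330 intron peaks by the position of their centre in the assigned intron (% from the 5′ end), with the 5 genes as red dots, and the right panel plots this position against intron length (bp, log scale). The red dots all lie between 81.3% and 98.4%, over introns from 3390 to 242979 bp.

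Along the whole gene the centres fell between 67.7% (FGF1) and 85.6% (ANGPT1) of the length from the 5′ end. The median of the assigned introns was 21778 bp, and that over all intron peaks was 28045.5 bp (interquartile range 7038 to 75865.5 bp). FGF1 and EFNA5 had the peak in intron 1, as did 107 of the 330 intron peaks (32.4%). ANGPT1 and SOS1 had it under 1000 bp from an intron edge, as did 71 of the 330 (21.5%). All 5 peaks lay wholly inside their intron, as did 313 of the 330. The base composition of the peaks was 58.5% (NTRK2), 59.3% (FGF1), 65.2% (SOS1), 67.8% (EFNA5) and 71.2% (ANGPT1) A or T, around the median of 62.7% in intron peaks. Of the 330 intron peaks, 319 had a lower share than ANGPT1. No other peak of the list lay in any of the genes. Measured from peak to peak, not from the gene bodies, the gap to the nearest other peak ran from 370700 bp (ANGPT1) to 4603700 bp (SOS1).

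The widths were 600 bp in NTRK2 and FGF1, 500 bp in ANGPT1 and 400 bp in EFNA5 and SOS1. Widths come in steps of 100 bp, the bin size the study's methods give for coverage. The median of 500 bp was 1 such step above the 400 bp of all intron peaks, whose interquartile range of 300 to 600 bp contained all 5 values. At 600 bp, 246 of the intron peaks were narrower and 43 were wider. At 400 bp, 127 were narrower and 143 wider. Intron peaks whose best ITR had 0 mismatches had a median width of 500 bp, and those with 1 mismatch 400 bp. The 5 genes did not follow this order, as FGF1 with 1 mismatch was wider than EFNA5 with 0. Among intron peaks of 600 bp, 24 of 41 had a best ITR with 0 mismatches (58.5%), and among those of 400 bp, 23 of 60 (38.3%). Width is no measure of height, which these lists do not give.

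To place the 5 genes among their relatives, 104 genes of growth factor signalling were listed by role. A peak was found in 8 of them (7.69%), of which 5 are the genes described here. In the 99 others 3 had a peak (3.03%), against 1.70% of all protein-coding genes. The lists were drawn up with earlier results of these data known, so the 3 of 99 is a description too and was not tested. By role, peaks were found in 1 of 9 neurotrophins and their receptors (NTRK2), in 1 of 22 FGF ligands (FGF1) and in 0 of 7 FGF receptors and co-receptors. They were found in 1 of 5 angiopoietins and TIE receptors (ANGPT1), in 1 of 8 ephrins (EFNA5) and in 1 of 14 Eph receptors (EPHA3). The EGF family and ERBB receptors had 2 of 15 (TGFA and NRG1), and adaptors and the RAS-ERK relay had 1 of 24 (SOS1). No more than 2 genes of a list had a peak.

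Most genes of these lists held no ITR. Of the 104, 81 had none with at most 3 mismatches in the gene body, and 0 of these had a peak. Over the annotation, 17709 of 19970 protein-coding genes had none, and 3 of those had a peak. Since 763 of the 764 peaks had an ITR within 500 bp, the 0 of 81 says little about the listed genes. Among the 23 listed genes with an ITR, 8 had a peak (34.8%), or 3 of 18 (16.7%) without the 5 genes. This was near the 14.9% of all protein-coding genes with an ITR. NTRK2 and EFNA5 were the only genes of the lists with an ITR of 0 mismatches, and over the annotation 160 of 304 genes with such an ITR had a peak (52.6%). Where the closest ITR had 1 mismatch, 6 of 12 listed genes had a peak, or 3 of 9 without FGF1, ANGPT1 and SOS1, against 155 of 914 among all genes of this kind. Where it had 2 or 3 mismatches, 0 of 9 listed genes and 2.11% of all genes had one.

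The 3 relatives with a peak had it in an intron. This is the usual place of a peak in a gene, as 330 peaks of the list were annotated as intron and 343 overlapped bodies of protein-coding genes. TGFA, a ligand of the EGF receptor, had a peak of 400 bp in intron 4 of 5 (chr2:70455401-70455800), with G18A as in SOS1 and ANGPT1. The TGFA peak held 2 ITRs with 1 mismatch each, and G18A is the form of the copy nearer the peak centre. The SOS1 peak held 1 ITR. EPHA3, an Eph receptor that binds EFNA5, had a peak of 300 bp in intron 3 of 6 (chr3:89261701-89262000), with a closest ITR of A12C. NRG1, a ligand of ERBB receptors, had a peak of 300 bp in intron 1 of 7 (chr8:32723901-32724200), with a closest ITR of G16A. Their centres lay at 24.5%, 39.4% and 34.0% of the assigned intron, so the late position seen in the 5 genes was not shared by these relatives. NRG1 held 11 ITRs, of which 1 was in a peak. A pair of further genes, named after their values were seen, had ITRs and no peak. NRG3 held 4 ITRs with 1 mismatch each in 1111986 bp, and TEK, which encodes the ANGPT1 receptor TIE2, held 1 ITR with 2 mismatches.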

How the data were processed

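Anti-HA ChIP DNA (paired ends) and input DNA (single ends, per the labels) of HAP1 cells were sequenced. The submitters' processing notes name GRCh38 (hg38), Bowtie2 2.3.4.1, Picard, SAMtools 1.10, deepTools 3.3.1, MACS2 2.2.6, bedtools 2.29.0 and HOMER. The authors aligned reads, took out PCR duplicates and blacklisted repeats, scaled coverage in bins of 100 bp, called peaks and subtracted those of the input. The study describes 2 biological experiments, and whether they were pooled for the list is not given in the sources used here. The deposited columns used are positions, with no count, signal or score, so the reads behind each peak are unknown. The study gives read totals over its experiments and describes a second, longer peak list at another threshold, neither of which was used here, so an ITR outside a peak is one outside the deposited list.

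The genes, lists and comparisons were chosen with earlier results of these data known. ITRs were matched to the consensus of the study's supplementary table, without gaps, in either orientation, on chromosomes 1 to 22 and X, with at most 3 mismatches. The search, tested on simulated sequence, recovered 160 of 160 planted sites and called 0 of 40 with more mismatches. Peaks were extended by 500 bp for overlaps with ITRs (1 shared base), and ITRs in inverted orientation within 500 bp were called paired. Assigned introns were taken from the list as 1-based positions, and relative positions were counted from the 5′ end on the strand of the element. Genes and transcripts came from GENCODE release 44 on hg38. The rule for named genes was the 5 genes plus any gene of the 8 role lists with a peak. Longer sequences around the ITRs are not reported here. No test was run, since there is 1 sample per group. Intervals (95%, Clopper-Pearson) were computed with scipy 1.17.1, tables with pandas 2.3.3 and numpy 2.4.6 and plots with matplotlib 3.10.9, under Python 3.11.15.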

Additional observations from a re-analysis of the deposited data

How the results depend on the processing

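The 5 peaks kept an ITR with limits of 1 and 2 mismatches and with extensions of 0 and 1000 bp, and 2 kept a pair at 100 and at 1000 bp. Of the 330 intron peaks, 299 and 327 had an ITR at these limits, and 328 and 329 at these extensions. Pairs were found in 168 and 189 of the 330. Nearly all intron peaks thus kept an ITR, and this is no trait of the 5 genes. With 0 mismatches required, 2 of the 5 peaks had an ITR, as did 139 of the 330 intron peaks. The share of ITRs of these genes in a peak was then 100% of 2, and 71.4% of 7 with at most 1 mismatch. Both shares were raised by the choice of genes with a peak. Among peaks at least 500 bp wide, the median width was 600 bp for the 3 genes left and for intron peaks. Of the 104 listed genes, 3 had a peak of this width, all of them among the 5 genes chosen for holding a peak. The peaks of TGFA (400 bp), EPHA3 (300 bp) and NRG1 (300 bp) were narrower, so this count comes from the choice of genes. Over all protein-coding genes the share with a peak of this width was 0.731%. The median position in the intron was 90.9% from the peak start and 82.2% from the peak end. With each intron counted once, the comparison with the median length of 21778 bp was 27652 bp. With 1 sample per group no replicate could be left out, and the lists without scores do not show how strongly any site was bound. No paired analysis was possible because each group holds 1 sample.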
